A study of Mus musculus with 18 samples.

Results

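The liver's response to caloric restriction was compared between mice on a low-fat and a high-fat diet, gene by gene, as the difference (HF+CR minus HF) minus (LF+CR minus LF). A gene belongs to this comparison when that difference, called the interaction below, passed limma's test at an adjusted p under 0.05, and 106 of the 10356 genes tested did so, which is 1.02%. A positive interaction means a higher value of the CR difference on HF than on LF. The mice were wild-type C57BL/6J, treated from 5 weeks of age, and whole liver was taken at 62 weeks for sequencing of polyA RNA. The 12 libraries compared were 3 each of LF (low-fat diet), LF+CR (low-fat diet with caloric restriction), HF (high-fat diet) and HF+CR (high-fat diet with caloric restriction), out of 18 in the series. The other 6 libraries, 3 each of LF+Ex and HF+Ex, carried the same diets with exercise. The labels give the abbreviations alone, and their expansion here comes from knowledge of such studies. Sex and diet composition are not in the labels, and nothing there says that every library is a separate mouse. The p-values therefore speak of the variation among these libraries, which may be technical.

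Mouse liver differs between the sexes in a large set of transcripts, many of them for secreted pheromone carriers, cytochromes P450, steroid-metabolising enzymes and transporters of organic anions. The pattern of growth hormone release is the main known switch: pulses, acting through the transcription factor STAT5B, favour the male pattern, and a steadier level favours the female one. CUX2, a homeobox repressor found in female liver, holds male-biased genes down, and caloric restriction and high-fat feeding are both known to shift parts of this programme. An interaction asks a separate question from either diet alone, namely whether restriction moves a gene by the same amount whatever the fat content of the food.

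Values are RPKM, reads per kilobase of transcript scaled to library size, and no counts were used. A rough estimate from the spacing of low values put the depth at 23.6 to 45 M reads per library. Libraries of 1 group correlated across genes at r = 0.952 to 0.989 and those of different groups at 0.928 to 0.986. Hepatocyte genes were high throughout, for example Apoa1 at 5638 RPKM or more, but Alb was listed at 0 in 14 of the 18 libraries, among them 11 of the 12 compared. Xist was at most 0.0184 RPKM, and Ddx3y, on the Y chromosome, was at 5.95 to 10.9 RPKM in all 18 libraries. The summed level of 25 pancreas markers was highest in LF+CR 1 (2530 RPKM), HF+CR 1 (436 RPKM), LF+Ex 1 (47.9 RPKM) and HF+CR 2 (38.6 RPKM), and 5.04 to 12.7 RPKM in the other 14 libraries. Bile duct markers summed highest in LF 2 (1866 RPKM) and HF+CR 3 (1819 RPKM). Close relatives among the Mup, Cyp2a, Cyp2b, Cyp2c, Cyp4a, Fmo, Slc22a, Serpina1, Nat8 and Acot genes share sequence, so the split of reads within these families is uncertain.

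Most of the 106 genes moved with CR in opposite senses on the 2 diets or on the LF diet only. By a size limit of 0.5 on the log2(RPKM + 1) scale, 37 genes had CR differences of at least that size with opposite signs, 42 reached it on LF only and 16 on HF only. The split depends on the limit: 65 genes were opposite at a limit of 0.3, 11 at a limit of 1 and 11 when sorted by the adjusted p of each CR difference. With a pseudocount of 0.1 in place of 1, 42 of the 101 genes called were opposite, 37 LF only and 14 HF only. Of the 42 LF-only genes 33 had a smaller difference of the opposite sign on HF. Only 1 gene, Mup20, reached the limit in the same direction on both diets, and 10 stayed under it on both. Among all 10356 genes, the shares sorted in the same way were 1.19% opposite, 9.57% LF only, 4.77% HF only, 2.59% in the same direction and 81.9% under the limit; the interaction test favours genes with unlike CR differences, so the classes of its calls are a description. The interaction was positive in 60 genes (0.579% of those tested) and negative in 46 (0.444%). CR differences alone were called for 673 genes on LF (6.5%, with 312 higher and 361 lower) and for 145 genes on HF (1.4%, with 65 higher and 80 lower). The CR groups did not overlap in 23.3% of all genes on LF and in 18.9% on HF, the background for every such statement on single genes below. The median interaction over all genes was 0.01, and 1220 genes had an unadjusted p under 0.05. Just inside the threshold lay Selenbp2 (adjusted p = 0.0496), and just outside it Nectin2 (0.0519).

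**Figure D1:**
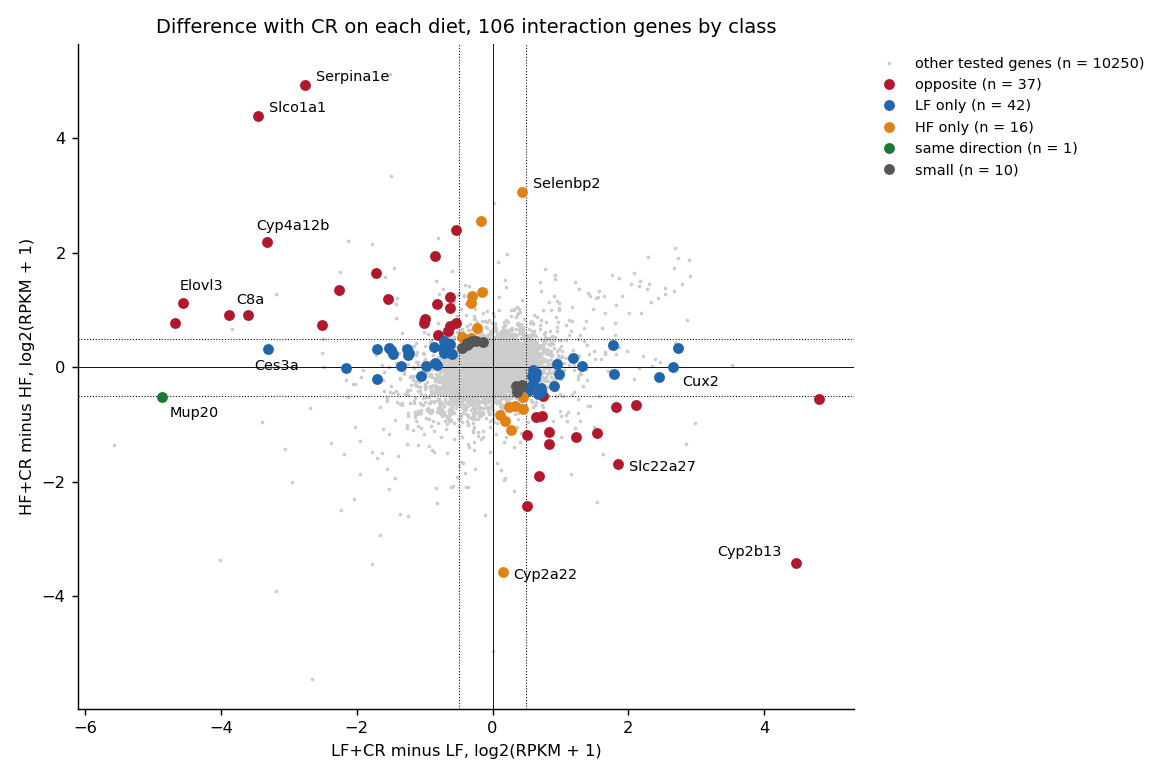
Each point is a gene, with LF+CR minus LF on the horizontal axis and HF+CR minus HF on the vertical axis, both in log2(RPKM + 1); coloured points are the 106 interaction genes by class, grey points the other 10250 tested genes, and dotted lines the size limit of 0.5. Cyp2b13 lies at 4.48 and -3.43, Slco1a1 at -3.45 and 4.39, and the 42 genes with a difference on LF only lie along the horizontal axis.

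How many genes passed depended on single libraries. Without the 3 libraries highest in pancreas markers (LF+CR 1, HF+CR 1 and LF+Ex 1) 37 genes were called, 36 of them among the 106, and without LF 2 and HF+CR 3 the count was 270, including 94 of the 106. Leaving out 1 library gave 45 genes without HF+CR 1, 53 without HF 2, 60 without HF 3, 64 without LF+CR 1 and 211 without HF+CR 3. In these fits, and in every other setting tried, no gene of the 106 that was tested changed the sign of its interaction. A filter on the mean level tested 77 of them, and the other settings all 106. The 106 were chosen for a large interaction in these same libraries. A change of sign was therefore unlikely from the start, and its absence is a description. Relative to the full set, the sizes of the 106 differences were 0.704 to 1.11 times as large without the pancreas libraries (median 0.890) and 0.768 to 1.33 times without LF 2 and HF+CR 3 (median 1.05). Of the 47 called genes named by the rule of this work, 21 were called in every setting, among them C6, C8a, C8b, Clec2h, Cux2, Cyp2b13, Cyp2c39, Cyp4a12a, Cyp4a12b, Cyp4a32, Fbxo21, Fmo1, Hsd17b2, Mup20, Postn, Slc22a26, Slc22a27, Slc27a2, Slco1a1 and Srd5a1. Among genes named further on, Kdm5b (adjusted p = 0.319), Mup21 (0.312), Acot3 (0.237), Irf9 (0.209), Slc16a7 (0.183), Hao2 (0.126), F11 (0.102), Cyp2a22 (0.0918), Slc22a28 (0.0686) and Pcp4l1 (0.0630) were not called without the pancreas libraries.

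Of the 37 opposite genes, 15 were higher with CR on LF and lower with CR on HF. Cyp2b13, a female-biased hepatic cytochrome P450, had the largest interaction of the whole set. Its RPKM values in replicate order were 0.481, 0.785 and 0.0478 in LF, 44.9, 14.96 and 40.7 in LF+CR, 5.24, 17.5 and 12.8 in HF and 0.0205, 0.254 and 0 in HF+CR. LF+CR and HF were thus the high groups, LF and HF+CR the low ones, and no library of a high group overlapped with one of a low group. The difference in log2(RPKM + 1) with CR was 4.48 ± 0.40 (adjusted p = 2.53e-05) on LF and -3.43 ± 0.40 (adjusted p = 0.00227) on HF, and the interaction was -7.90 ± 0.57 (adjusted p = 4.30e-06). Cyp2b13 is 1 of 9 genes whose opposite CR differences were each called on their own, with Fbxo21, Cyp2c39, Slc22a27, Slco1a1, Srd5a1, C8b, Postn and Lrrc28. In a further 15 opposite genes only the LF difference was called, in 9 only the HF difference and in 4 neither.

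Slc22a27, a member of the organic anion transporter family, and Cyp2c39, a P450 of the Cyp2c cluster, rose with CR on LF and fell on HF. Slc22a27 measured 3.63, 6.45 and 3.25 RPKM in LF, 20.8, 18.3 and 15.1 RPKM in LF+CR, 2.96, 8.30 and 7.95 RPKM in HF and 0.267, 1.89 and 1.68 RPKM in HF+CR. Cyp2c39 measured 1.68, 1.78 and 1.02 RPKM in LF, 5.31, 4.38 and 4.72 RPKM in LF+CR, 1.22, 3.33 and 2.38 RPKM in HF and 0.172, 0.281 and 0.714 RPKM in HF+CR. In both genes CR separated the libraries fully on each diet, upward on LF and downward on HF. Interactions were -3.54 ± 0.50 (adjusted p = 0.00307) for Slc22a27 and -2.45 ± 0.34 (adjusted p = 0.00307) for Cyp2c39. Hao2, a peroxisomal hydroxyacid oxidase, had 0.689, 0.161 and 0.593 RPKM in LF and 2.49, 4.71 and 2.86 RPKM in LF+CR, against 0.340, 2.75 and 3.72 RPKM in HF and 0.154, 0.668 and 0.141 RPKM in HF+CR. It rose on LF without overlap, whereas HF 1 lay within the range of HF+CR and the HF difference of -1.14 ± 0.36 (adjusted p = 0.147) was not called.

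Acot3, a peroxisomal acyl-CoA thioesterase, differed mainly on HF. Its libraries read 48.1, 21.9 and 55.7 RPKM in LF, 47.0, 61.2 and 59.9 RPKM in LF+CR, 19.7, 17.9 and 17.5 RPKM in HF and 1.16, 4.74 and 2.77 RPKM in HF+CR. LF and LF+CR overlapped, and all HF+CR libraries were below all others of these 4 groups. Acot3 fell on HF by a log2 difference of -2.42 ± 0.46 (adjusted p = 0.0205), against 0.51 ± 0.46 (adjusted p = 0.553) on LF. Postn, or periostin, a matrix protein made by stellate cells and fibroblasts, was at 1.67, 1.505 and 1.077 RPKM in LF, 2.02, 3.09 and 3.22 RPKM in LF+CR, 3.74, 5.49 and 3.36 RPKM in HF and 1.48, 1.77 and 2.17 RPKM in HF+CR. It was lowest in LF and highest in HF, and the 2 CR groups overlapped. Postn rose with CR on LF (0.64 ± 0.17 (adjusted p = 0.0416)) and fell on HF (-0.87 ± 0.17 (adjusted p = 0.0229)). The summed level of 20 stellate cell and matrix markers, Postn among them, was 146 to 349 RPKM in LF, 190 to 215 RPKM in LF+CR, 234 to 284 RPKM in HF and 205 to 344 RPKM in HF+CR, and its part in the Postn result was not tested. As in any bulk tissue, fewer cells of a type and less RNA per cell cannot be told apart.

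The other 22 opposite genes were lower with CR on LF and higher with CR on HF. Slco1a1, an organic anion transporting polypeptide that is male-biased in mouse liver, had the largest interaction among them. It stood at 8.69, 4.14 and 40.1 RPKM in LF, 0.122, 0.159 and 0.204 RPKM in LF+CR, 2.79, 0.428 and 0.863 RPKM in HF and 92.9, 85.1 and 10.5 RPKM in HF+CR. All LF+CR libraries lay near 0, and all HF+CR libraries exceeded all HF libraries, with HF+CR 3 well below its 2 partners. The CR difference was -3.45 ± 0.80 (adjusted p = 0.0195) on LF and 4.39 ± 0.80 (adjusted p = 0.0176) on HF, an interaction of 7.84 ± 1.13 (adjusted p = 0.00307). Serpina1e, of the alpha-1-antitrypsin family of protease inhibitors, reached 4512, 1488 and 1413 RPKM in HF+CR, from 308, 29.2 and 34.6 RPKM in HF. On LF its levels were 25.7, 27.1 and 171 RPKM, and 3.68, 3.96 and 17.04 RPKM in LF+CR. HF+CR was by far the highest of the 4 groups and LF+CR the lowest, without overlap on either diet. Serpina1e rose on HF by 4.93 ± 0.97 (adjusted p = 0.0219), its LF difference of -2.75 ± 0.97 (adjusted p = 0.105) was not called, and the interaction of 7.69 ± 1.37 (adjusted p = 0.0119) was not called without the pancreas libraries (6.81, adjusted p = 0.126).

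Elovl3, an elongase of very-long-chain fatty acids, and the omega-hydroxylases Cyp4a12a and Cyp4a12b, which act on arachidonic acid, are male-biased too and were lowest in LF+CR. Elovl3 had 51.9, 53.9 and 47.0 RPKM in LF and 0.911, 1.22 and 1.52 RPKM in LF+CR, against 18.5, 13.6 and 35.1 RPKM in HF and 131, 73.9 and 9.91 RPKM in HF+CR. Cyp4a12b had 9.25, 31.1 and 8.04 RPKM in LF and 0.121, 0.693 and 0.588 RPKM in LF+CR, against 3.58, 0.421 and 0.422 RPKM in HF and 11.5, 3.59 and 13.96 RPKM in HF+CR. Both genes fell on LF without overlap, by -4.56 ± 0.66 (adjusted p = 0.00150) and -3.32 ± 0.55 (adjusted p = 0.00324). On HF, Elovl3 overlapped because HF+CR 3 was lower than all HF libraries, and Cyp4a12b did not overlap, by a narrow margin between HF 1 and HF+CR 2, but neither difference was called (1.13 ± 0.66 (adjusted p = 0.482) and 2.18 ± 0.55 (adjusted p = 0.0742)). Interactions were 5.69 ± 0.94 (adjusted p = 0.00730) for Elovl3, 5.50 ± 0.78 (adjusted p = 0.00307) for Cyp4a12b and 5.46 ± 0.76 (adjusted p = 0.00307) for Cyp4a12a. Without the pancreas libraries the Elovl3 interaction was 4.85 (adjusted p = 0.0648). Mup21, a major urinary protein, fell on LF from 139, 87.1 and 409 RPKM to 6.08, 24.0 and 15.2 RPKM, while HF (107, 69.0 and 92.0 RPKM) and HF+CR (527, 209 and 40.6 RPKM) overlapped.

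Subunits of the complement membrane attack complex, which inserts pores into target membranes, were among the opposite genes, namely C6, C8a and C8b. C8a, the alpha chain of complement component C8, stood at 96.9, 90.7 and 135 RPKM in LF, 3.13, 8.95 and 8.33 RPKM in LF+CR, 131, 75.3 and 74.3 RPKM in HF and 193, 160.1 and 161 RPKM in HF+CR. C8b, its beta chain, stood at 49.7, 45.7 and 81.8 RPKM in LF, 9.53, 21.1 and 23.0 RPKM in LF+CR, 62.8, 23.8 and 32.6 RPKM in HF and 141, 117 and 97.9 RPKM in HF+CR. For both chains LF+CR was the lowest group and HF+CR the highest, and CR separated the libraries on each diet. C8a fell on LF (-3.88 ± 0.30 (adjusted p = 7.61e-06)), and its HF difference of 0.91 ± 0.30 (adjusted p = 0.170) was not called, whereas C8b fell on LF (-1.71 ± 0.36 (adjusted p = 0.0114)) and rose on HF (1.65 ± 0.36 (adjusted p = 0.0338)). C6 went from 20.1, 39.3 and 29.9 RPKM in LF to 2.73, 6.79 and 7.19 RPKM in LF+CR, a fall, and from 40.9, 22.1 and 20.3 RPKM in HF to 91.8, 59.6 and 60.1 RPKM in HF+CR, a difference of 1.35 ± 0.36 (adjusted p = 0.0955). Interactions were 4.79 ± 0.43 (adjusted p = 5.01e-05) for C8a, 3.36 ± 0.50 (adjusted p = 0.00361) for C8b and 3.62 ± 0.52 (adjusted p = 0.00307) for C6. C9, which forms the ring of the pore, was an LF-only gene, falling from 59.9, 100.1 and 117 RPKM to 20.0, 37.7 and 39.0 RPKM on LF, with an interaction of 1.79 ± 0.38 (adjusted p = 0.0328). That call was lost without the pancreas libraries (1.36, adjusted p = 0.248) and without LF 2 and HF+CR 3 (1.66, adjusted p = 0.0647).

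On a list of steroid metabolism, 2 of 18 tested genes were called (11.1%, beside 1.02% of all genes), both opposite genes, and 10 of the 18 values were positive and 8 negative. Srd5a1, the steroid 5-alpha reductase that makes dihydrotestosterone, was at 26.5, 33.0 and 35.4 RPKM in LF, 15.9999, 13.6 and 16.4 RPKM in LF+CR, 15.03, 15.5 and 14.05 RPKM in HF and 31.5, 26.8 and 24.2 RPKM in HF+CR. LF+CR and HF were low at nearly the same level, and LF and HF+CR were high. CR lowered Srd5a1 on LF (-0.99 ± 0.19 (adjusted p = 0.00723)) and raised it on HF (0.84 ± 0.19 (adjusted p = 0.0431)), an interaction of 1.83 ± 0.27 (adjusted p = 0.00338). Hsd17b2, which oxidises estradiol and testosterone to weaker forms, fell on LF from 49.6, 56.0 and 62.3 RPKM to 39.5, 32.1 and 33.9 RPKM, and read 52.5, 55.1 and 48.0 RPKM in HF and 102, 83.8 and 62.5 RPKM in HF+CR (interaction 1.296 ± 0.22 (adjusted p = 0.00779)). The HF difference of Hsd17b2, 0.64 ± 0.15 (adjusted p = 0.0546), was not called. Fbxo21, the substrate-binding subunit of a ubiquitin ligase, was like Srd5a1 high in LF and HF+CR and low in LF+CR and HF. Its values were 52.9, 49.9 and 45.5 RPKM in LF, 25.3, 30.7 and 28.0 RPKM in LF+CR, 30.2, 25.7 and 29.2 RPKM in HF and 40.0, 37.3 and 51.0 RPKM in HF+CR. Both CR differences were called, and no groups within a diet overlapped (interaction 1.37 ± 0.17 (adjusted p = 0.00226)). Clec2h, a C-type lectin, and Slc22a28, a relative of Slc22a27, rose on HF from low levels, to 4.93, 8.40 and 10.7 RPKM and to 6.30, 4.92 and 1.497 RPKM in HF+CR, with interactions of 2.94 ± 0.41 (adjusted p = 0.00307) and 2.79 ± 0.46 (adjusted p = 0.00730). In LF, Clec2h was at 0.463, 0.132 and 0.984 RPKM and Slc22a28 at 0.419, 0.403 and 1.94 RPKM, and in LF+CR both were at most 0.0582 RPKM. Their LF differences, -0.54 ± 0.29 (adjusted p = 0.287) and -0.84 ± 0.33 (adjusted p = 0.140), were not called.

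**Figure D2:**
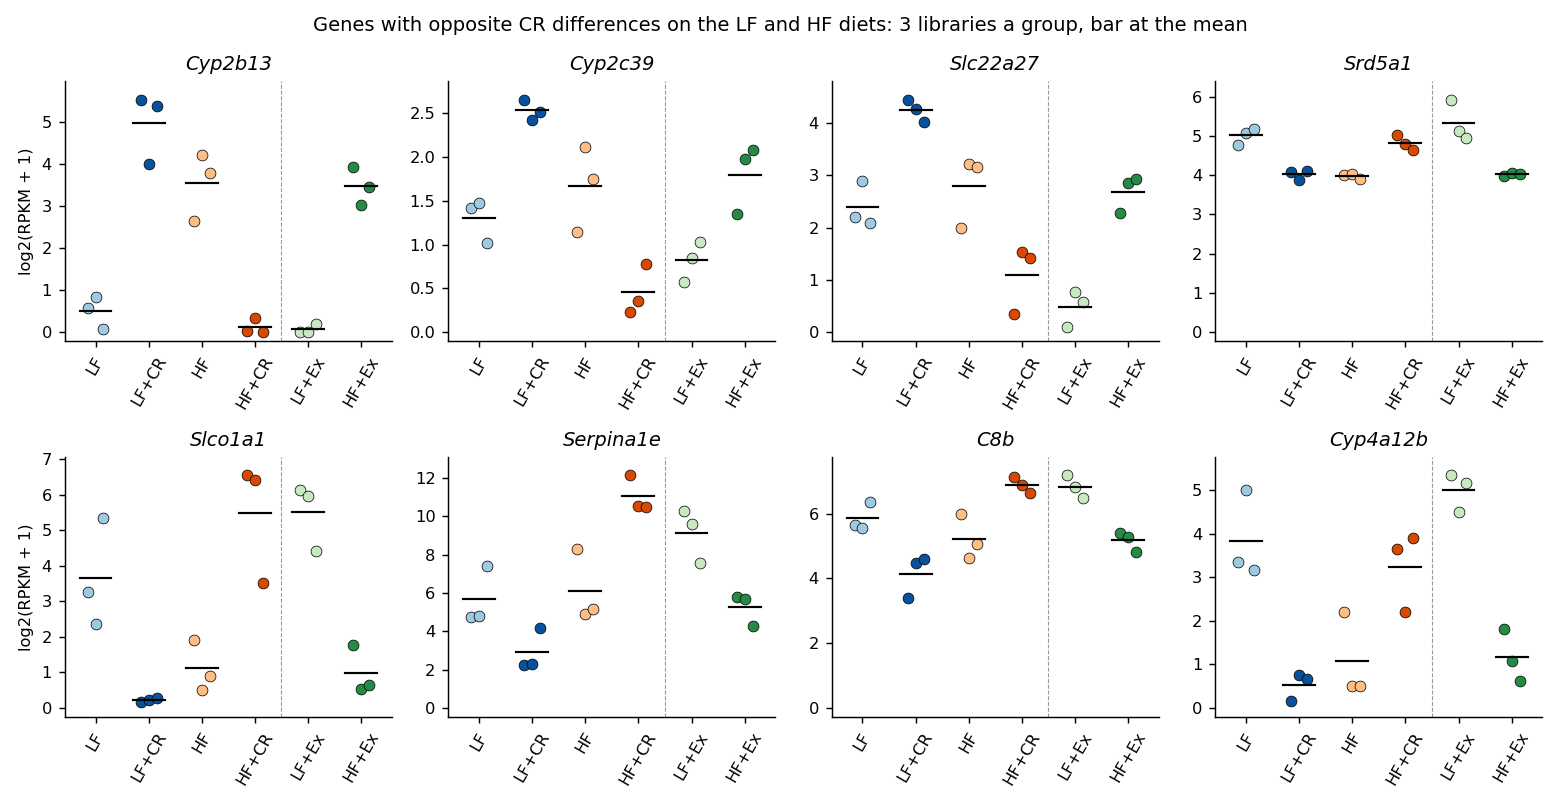
Each panel shows log2(RPKM + 1) of 1 gene, with 3 libraries a group as points and the group mean as a bar; the dashed line separates the 4 groups of the interaction from the Ex groups. In the top row Cyp2b13, Cyp2c39 and Slc22a27 are highest in LF+CR, Srd5a1 and the bottom row (Slco1a1, Serpina1e, C8b and Cyp4a12b) are lower in LF+CR than in LF and higher in HF+CR than in HF.

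Among the 42 genes with a CR difference on LF only, 20 rose and 22 fell, and all 42 were called in LF+CR against LF. The gene with the third smallest p of the interaction was Cux2, the female-specific homeobox repressor of male-biased genes. Cux2 was at 0.113, 0.462 and 0.0853 RPKM in LF, 7.23, 4.45 and 8.82 RPKM in LF+CR, 0.00764, 0 and 0.00740 RPKM in HF and 0, 0.0119 and 0.0282 RPKM in HF+CR. Only the LF+CR libraries held more than 0.5 RPKM. Cux2 rose on LF by 2.65 ± 0.18 (adjusted p = 1.45e-06), its HF difference was 0.01 ± 0.18 (adjusted p = 0.990), and the interaction was -2.64 ± 0.25 (adjusted p = 6.57e-05). Slc22a26, a female-biased organic anion transporter family member, had 1.21, 2.63 and 1.41 RPKM in LF, 21.3, 11.3 and 10.5 RPKM in LF+CR, 0.499, 0.463 and 0.730 RPKM in HF and 0.133, 0.395 and 0.709 RPKM in HF+CR. It too was high in LF+CR alone (interaction -2.61 ± 0.35 (adjusted p = 0.00307)). Akr1b7, an aldo-keto reductase, rose from 0, 1.06 and 0.164 RPKM to 6.48, 3.37 and 1.9996 RPKM on LF and was at most 0.309 RPKM in HF and HF+CR (interaction -1.90 ± 0.40 (adjusted p = 0.0305)). Cux2 and Akr1b7 were so low in HF that a fall with CR could not have reached the size limit on this scale. Their place among the LF-only genes is limited by that floor.

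Promoter windows were taken from RefSeq on GRCm38.p6, 250 bases before to 50 after a transcript start that RefSeq lists, and 90 of the 106 genes had at least 1. A gene can have several such starts, and they need not lie at the edge of its span: the starts used for Cyp2b13, C8a and Cux2 lie within the gene spans used here. The windows are printed for the 3 genes with the smallest p of the interaction, Cyp2b13, C8a and Cux2, and for Slco1a1, the largest positive interaction. That choice was made after the values were seen. Where a gene had several windows, those with a match to a searched motif were printed in preference. A match in a printed window can therefore come from that preference. Capitals mark matches to TTCNNNGAA, the core bound by STAT5 and BCL6, in C8a, and to ATCGAT, a core bound by CUX2 and HNF6, in Cux2; both strands were searched, and Cyp2b13 and Slco1a1 have neither in these windows. The windows are Cyp2b13 (plus strand, chr7:26061245-26061544), Slco1a1 (minus strand, chr6:141946913-141947212), C8a (minus strand, chr4:104876349-104876648) and Cux2 (minus strand, chr5:122047776-122048075), each read 5′ to 3′.
Cyp2b13: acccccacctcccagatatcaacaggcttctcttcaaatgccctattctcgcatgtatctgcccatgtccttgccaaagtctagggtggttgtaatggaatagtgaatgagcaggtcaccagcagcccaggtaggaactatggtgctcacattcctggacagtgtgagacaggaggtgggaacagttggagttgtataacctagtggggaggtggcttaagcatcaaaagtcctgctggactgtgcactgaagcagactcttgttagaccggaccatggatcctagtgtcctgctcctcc
Slco1a1: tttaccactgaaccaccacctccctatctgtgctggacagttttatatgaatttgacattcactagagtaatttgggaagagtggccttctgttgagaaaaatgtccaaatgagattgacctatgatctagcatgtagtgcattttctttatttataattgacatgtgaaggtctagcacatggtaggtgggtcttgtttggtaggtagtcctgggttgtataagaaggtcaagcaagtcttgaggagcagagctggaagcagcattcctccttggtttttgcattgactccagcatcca
C8a: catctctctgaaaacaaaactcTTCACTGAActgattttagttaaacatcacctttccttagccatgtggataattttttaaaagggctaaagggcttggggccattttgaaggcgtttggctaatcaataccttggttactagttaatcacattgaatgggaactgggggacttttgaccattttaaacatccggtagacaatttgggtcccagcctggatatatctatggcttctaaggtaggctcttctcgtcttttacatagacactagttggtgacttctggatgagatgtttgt
Cux2: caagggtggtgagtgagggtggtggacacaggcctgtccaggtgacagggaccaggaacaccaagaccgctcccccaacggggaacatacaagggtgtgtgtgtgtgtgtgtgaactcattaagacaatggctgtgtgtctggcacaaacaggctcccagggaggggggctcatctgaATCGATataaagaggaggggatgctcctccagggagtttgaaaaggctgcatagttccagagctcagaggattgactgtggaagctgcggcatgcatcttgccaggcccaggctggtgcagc

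Shares of windows with a match were counted for all genes outside chr18 as the background. TTCNNNGAA occurred in 10 of 109 windows of interaction genes (9.17%), beside 8.3% of all 32851 windows and 6.72% of those of tested genes, and in 5 of the 39 windows of opposite genes (12.8%). Its matches were in the windows of C8a, Keg1, Fmo2, Lrrc28 and Pdcd4 among the opposite genes, Slc22a26, Ndufa8, Hsd3b7 and Enpep among the LF-only genes and Gga2 among the HF-only genes. ATCGAT occurred in 2 of the 109, those of Cux2 and Serpina1e, beside 0.925% of all windows. A match is a description of letters and not of binding.

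Further genes that rose on LF only came from lists with few calls: 2 of 35 tested genes of gluconeogenesis, glycogen and insulin action (5.71%), Ppp1r3g and Gbe1, and 2 of 73 respiratory chain subunits (2.74%), beside 1.02% of all genes. Ppp1r3g, a subunit that targets protein phosphatase to glycogen, rose from 0.931, 0.345 and 0.302 RPKM in LF to 8.05, 12.95 and 6.82 RPKM in LF+CR, with 0.454, 0.172 and 0.190 RPKM in HF and 0, 0.128 and 2.64 RPKM in HF+CR. Gbe1, the glycogen branching enzyme, rose from 32.9, 32.7 and 40.9 RPKM to 55.1, 58.1 and 57.0 RPKM, and read 45.6, 60.8 and 52.8 RPKM in HF and 37.6, 41.4 and 35.3 RPKM in HF+CR. On HF the 3 Gbe1 values with CR were below the 3 without, a difference of -0.46 ± 0.15 (adjusted p = 0.173) that was not called. Ndufa12 and Ndufa8, subunits of respiratory complex I, rose by 0.63 ± 0.11 (adjusted p = 0.00330) and 0.59 ± 0.11 (adjusted p = 0.00539) on LF and overlapped on HF, with interactions of -0.74 ± 0.15 (adjusted p = 0.0276) and -0.74 ± 0.15 (adjusted p = 0.0304). Ppp1r3g (adjusted p = 0.237), Ndufa12 (0.248), Ndufa8 (0.223) and Akr1b7 (0.185) were not called without the pancreas libraries, and Gbe1 was (0.0316). Some further genes were picked out after their values were seen, with no list or background behind the choice. They were Gpi1, glucose-6-phosphate isomerase (interaction -1.24 ± 0.26 (adjusted p = 0.0305)), Pgk1, phosphoglycerate kinase (-0.64 ± 0.14 (adjusted p = 0.0360)) and Dlat, of the pyruvate dehydrogenase complex (-1.02 ± 0.23 (adjusted p = 0.0399)), and the opposite gene Eno1, enolase (-1.25 ± 0.22 (adjusted p = 0.0105)). None of the 4 was called without the pancreas libraries (adjusted p = 0.292 for Gpi1, 0.321 for Pgk1, 0.265 for Dlat and 0.112 for Eno1). Pgk1 had 146, 148 and 163 RPKM in LF, 253, 232 and 208 RPKM in LF+CR, 141, 167 and 155 RPKM in HF and 138, 153 and 158 RPKM in HF+CR, with LF+CR above LF and the HF groups overlapping.

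The genes that fell on LF only numbered 22. Ces3a, a carboxylesterase of the endoplasmic reticulum, went from 311, 275 and 539.8 RPKM in LF to 11.4, 55.9 and 67.6 RPKM in LF+CR. It stayed at 607, 418 and 522 RPKM in HF and 835, 758 and 409.9 RPKM in HF+CR, and LF+CR was the only low group. Its interaction of 3.63 ± 0.67 (adjusted p = 0.0151) was the largest of this class. Slc27a2, which activates and imports very-long-chain fatty acids, showed a smaller but tight fall, from 832, 708 and 820.0 RPKM to 352, 393 and 386 RPKM on LF, against 715, 653 and 711 RPKM in HF and 629, 599 and 642 RPKM in HF+CR. Interactions were 0.91 ± 0.16 (adjusted p = 0.0111) for Slc27a2, 1.37 ± 0.21 (adjusted p = 0.00387) for the fatty acid hydroxylase Cyp4a32, 1.47 ± 0.30 (adjusted p = 0.0304) for the naphthalene-oxidising Cyp2f2 and 1.48 ± 0.30 (adjusted p = 0.0247) for Hsd3b7, an enzyme of bile acid synthesis. All 4 fell on LF, by log2 differences of -1.06, -1.35, -1.24 and -1.23, and none was called on HF. Nat8f5, of the N-acetyltransferase family, dropped from 5.10, 2.36 and 4.16 RPKM to 0, 0.114 and 0.0689 RPKM on LF and overlapped on HF. Cyp2f2 (adjusted p = 0.156), Hsd3b7 (0.131) and Nat8f5 (0.222) were not called without the pancreas libraries, and Ces3a (0.0217), Slc27a2 (0.0463) and Cyp4a32 (0.0241) were.

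Alas2, the first enzyme of heme synthesis in red cell precursors, fell on LF from 26.6, 39.6 and 34.9 RPKM to 7.20, 11.6 and 10.4 RPKM and overlapped on HF, with 43.9, 35.5 and 24.5 RPKM and 52.2, 45.4 and 32.0 RPKM. Its interaction was 2.02 ± 0.33 (adjusted p = 0.00730), and 1.69 (adjusted p = 0.0918) without the pancreas libraries. The summed level of the 8 of 9 red cell markers in the files, Alas2 among them, was 856 to 1697 RPKM in LF, 717 to 886 RPKM in LF+CR, 482 to 1325 RPKM in HF and 368 to 805 RPKM in HF+CR. That sum was lower with CR on both diets at the top of its range, and its part in the Alas2 result was not tested. Irf9, a factor of the interferon response, fell on LF from 4.87, 7.04 and 7.37 RPKM to 1.32, 0.957 and 2.60 RPKM (interaction 1.86 ± 0.38 (adjusted p = 0.0286)). Irf9 has 3 RefSeq rows, and with their sum in place of the highest row the interaction was 0.51 (adjusted p = 0.350).

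Only 16 genes differed with CR on HF alone, 8 upward and 8 downward, and 15 of them were called in HF+CR against HF. Selenbp2, a selenium-binding protein, was at 6.84, 4.28 and 5.49 RPKM in LF, 7.47, 7.73 and 7.92 RPKM in LF+CR, 14.5, 7.14 and 5.95 RPKM in HF and 134, 38.9 and 94.3 RPKM in HF+CR. Enho, which encodes the secreted peptide adropin, was at 0.823, 3.06 and 0.719 RPKM in LF, 1.60, 0.936 and 0.777 RPKM in LF+CR, 3.12, 1.24 and 1.76 RPKM in HF and 16.7, 12.8 and 20.2 RPKM in HF+CR. In both genes HF+CR was above all other libraries of these 4 groups, and both rose on HF (3.06 ± 0.42 (adjusted p = 0.00393) and 2.56 ± 0.44 (adjusted p = 0.0137)). Their interactions, 2.63 ± 0.60 (adjusted p = 0.0496) and 2.73 ± 0.62 (adjusted p = 0.0492), lost the call without the pancreas libraries (2.24, adjusted p = 0.301, and 2.87, adjusted p = 0.221) and without LF 2 and HF+CR 3 (2.65, adjusted p = 0.0603, and 2.18, adjusted p = 0.0902). F11, coagulation factor XI, had 16.6, 10.9 and 16.2 RPKM in LF, 8.43, 11.2 and 15.2 RPKM in LF+CR, 21.9, 17.7 and 20.3 RPKM in HF and 48.9, 44.97 and 39.9 RPKM in HF+CR. It rose on HF without overlap, with an interaction of 1.44 ± 0.25 (adjusted p = 0.0105).

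Cyp2a22, a P450 of the Cyp2a cluster, had the largest difference on HF alone. Its values were 18.4, 18.4 and 7.84 RPKM in LF, 14.5, 15.9 and 16.3 RPKM in LF+CR, 9.99, 36.7 and 26.6 RPKM in HF and 0.507, 1.03 and 1.18 RPKM in HF+CR. Among these 4 groups HF+CR alone was low, and LF+Ex was low too, at 1.03, 0.825 and 5.15 RPKM. Cyp2a22 fell on HF by -3.58 ± 0.46 (adjusted p = 0.00227) and had a difference of 0.15 ± 0.46 (adjusted p = 0.882) on LF, an interaction of -3.73 ± 0.65 (adjusted p = 0.00980). Fmo1, a flavin monooxygenase that oxidises drugs, fell on HF from 92.8, 110.5 and 106 RPKM to 53.6, 70.5 and 62.4 RPKM and rose on LF from 82.7, 99.9 and 103 RPKM to 118, 136 and 136 RPKM. The LF rise of 0.45 ± 0.12 (adjusted p = 0.0374) passed the test but lay under the size limit, and the same held for Glrx, a glutaredoxin, at 0.46 ± 0.10 (adjusted p = 0.0167). Pcp4l1 and Slc16a7, a monocarboxylate transporter, fell on HF (-1.10 ± 0.18 (adjusted p = 0.0109) and -0.93 ± 0.17 (adjusted p = 0.0187)) and overlapped on LF.

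**Figure D3:**
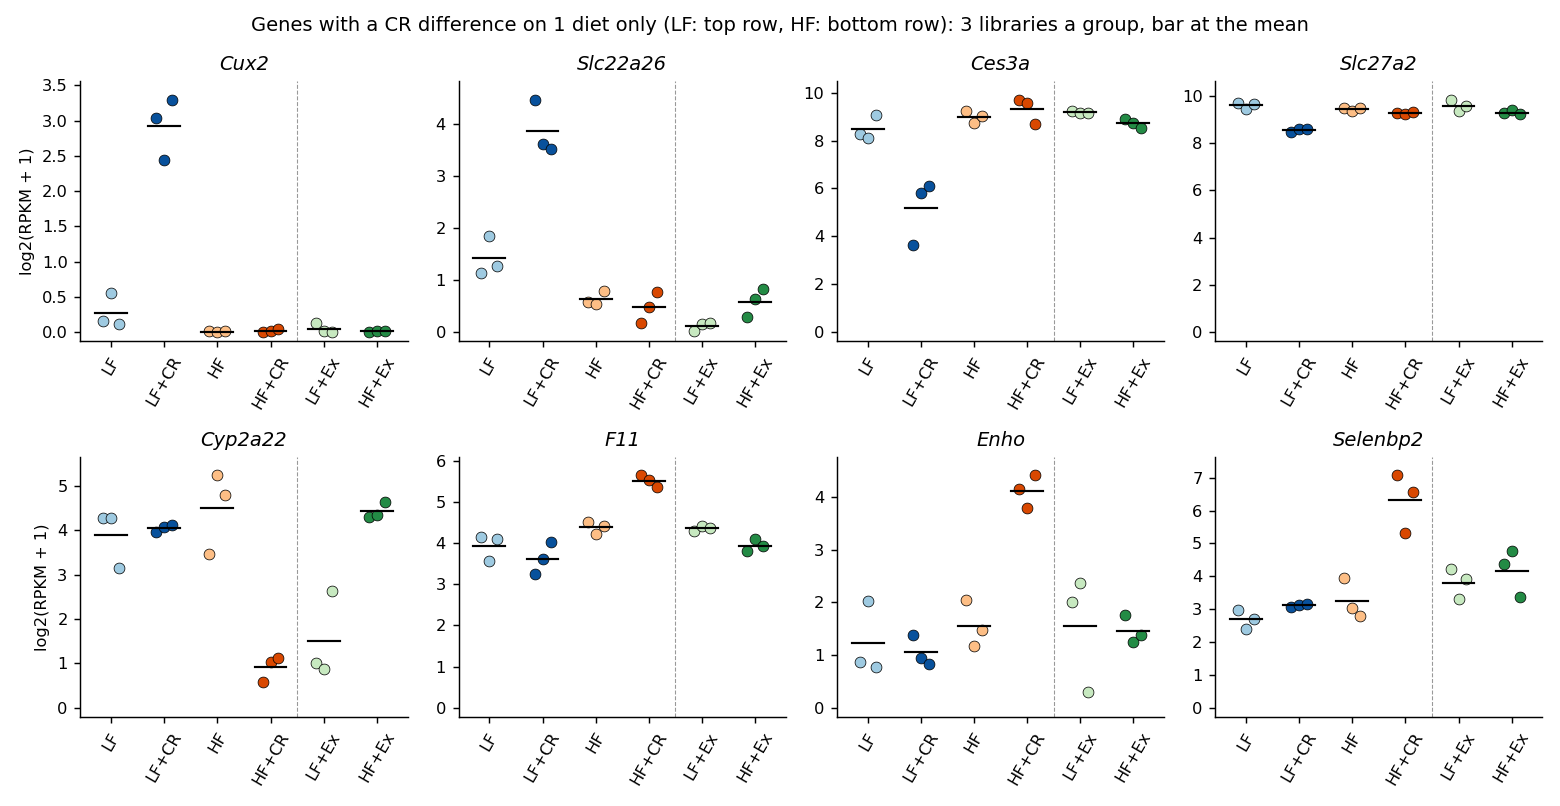
Panels show log2(RPKM + 1) of 4 genes with a CR difference on LF only (top) and 4 on HF only (bottom), with 3 libraries a group as points, the mean as a bar and the Ex groups right of the dashed line. Cux2 and Slc22a26 are high in LF+CR alone, Ces3a and Slc27a2 low in LF+CR, Cyp2a22 is lowest among the first 4 groups in HF+CR, and F11, Enho and Selenbp2 are highest among them in HF+CR.

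Mup20, the male urinary pheromone darcin, fell on LF from 4563, 10439 and 9572 RPKM to 151, 498 and 242 RPKM. HF (9608, 5496 and 5251 RPKM) and HF+CR (6523, 2497 and 5720.2 RPKM) overlapped, and the HF difference of -0.52 ± 0.44 (adjusted p = 0.651) was just past the size limit and not called. Its interaction was 4.34 ± 0.62 (adjusted p = 0.00307). The 10 genes under the size limit on both diets all had CR differences of opposite sign, with interactions of 0.57 to 0.80 in size. Kdm5b, a histone demethylase of the lysine 4 mark, was the member of this group that the naming rule took, at 2.10, 2.72 and 2.06 RPKM in LF, 1.58, 1.86 and 1.85 RPKM in LF+CR, 2.61, 2.40 and 2.28 RPKM in HF and 4.19, 3.61 and 3.34 RPKM in HF+CR. It rose on HF (0.46 ± 0.11 (adjusted p = 0.0496)), and its LF difference was -0.25 ± 0.11 (adjusted p = 0.188).

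Sex-biased liver genes made up 25 of the 106. Of 32 tested genes on a male-biased list, 14 had a called interaction and all 14 were positive, beside 0.579% of all genes called positive. The median interaction of the list was 2.86, against 0.01 over all genes, and all 32 values were above 0. On LF 16 of the 32 fell with CR and none rose (3.49% of all genes fell), with a median of -1.502, while on HF 5 rose and none fell (0.628% of all genes rose), with a median of 1.12. Of 31 tested genes on a female-biased list, 10 had a called negative interaction, beside 0.444% of all genes, and 1, Slc22a28, a positive one. The median was -1.45, and 29 of the 31 values were below 0. On LF 14 rose and none fell (3.01% of all genes rose), and on HF 5 fell and 1 rose (0.772% of all genes fell). These lists were written with earlier results of these data known, and their counts are no independent evidence of direction. Without the pancreas libraries 8 male-biased genes were called positive and 6 female-biased genes negative, and without LF 2 and HF+CR 3 the counts were 23 and 10. Of the 37 opposite genes 11 were on the male-biased and 8 on the female-biased list, against 1 and 2 of the 42 LF-only genes and 1 and 1 of the 16 HF-only genes.

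The mean level of each list in single libraries showed the same arrangement. For the 32 male-biased genes the mean of log2(RPKM + 1) was 5.10 to 6.25 in LF, 3.19 to 3.98 in LF+CR, 4.91 to 5.94 in HF and 5.65 to 7.56 in HF+CR. The LF and LF+CR libraries did not overlap, and HF overlapped with HF+CR through HF+CR 3, the lowest of its group. For the 31 female-biased genes it was 2.52 to 2.71 in LF, 3.70 to 3.83 in LF+CR, 2.14 to 2.85 in HF and 1.51 to 2.03 in HF+CR. Here the groups within each diet did not overlap.

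**Figure D4:**
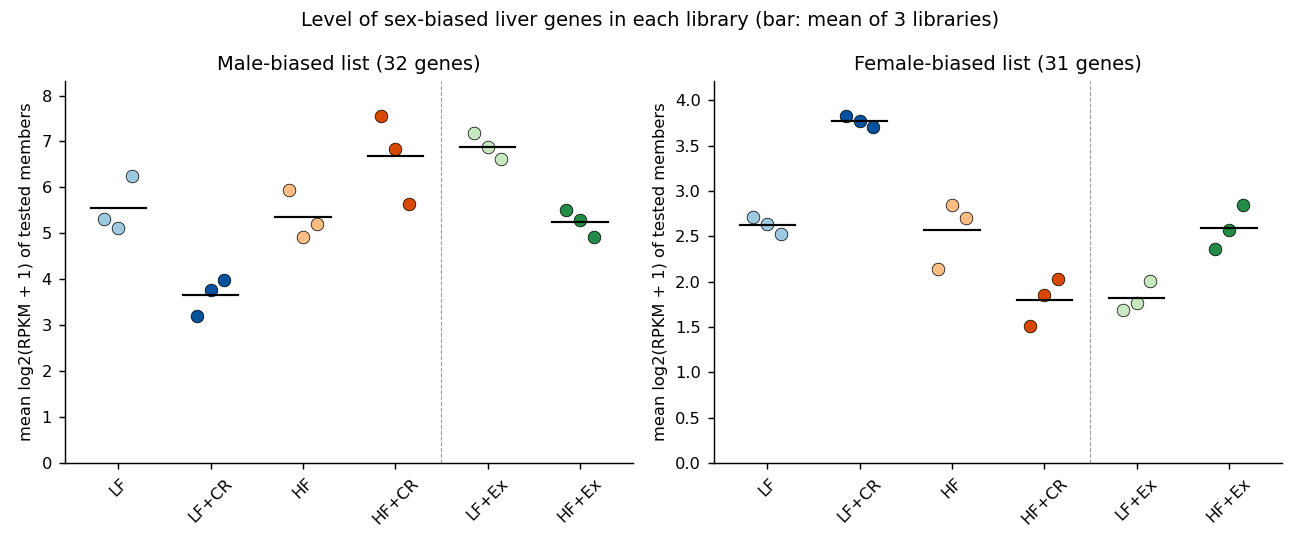
Points are libraries, with the mean log2(RPKM + 1) of the 32 male-biased genes (left) and the 31 female-biased genes (right) on the vertical axis, 3 libraries in each of 6 groups and a bar at the group mean. LF+CR is the lowest group on the left (3.19 to 3.98) and the highest on the right (3.70 to 3.83), and HF+CR is high on the left (5.65 to 7.56) and among the low groups on the right (1.51 to 2.03).

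Several sex-biased genes did not pass the interaction test. Hsd3b5, a male-biased hydroxysteroid dehydrogenase, had a difference of 6.63 ± 1.86 (adjusted p = 0.129), with 0.468, 0 and 14.9 RPKM in LF, 0, 0.0143 and 0 RPKM in LF+CR, 0.484, 0 and 0 RPKM in HF and 202, 152 and 1.02 RPKM in HF+CR. LF 3 and HF+CR 3 stood far from their partners. Cyp2b9, the neighbour and close relative of Cyp2b13, had 85.2, 66.2 and 57.8 RPKM in LF, 174, 234 and 200.1 RPKM in LF+CR, 47.8, 147 and 128 RPKM in HF and 12.6, 52.2 and 8.52 RPKM in HF+CR, a difference of -3.89 ± 1.05 (adjusted p = 0.107) with all LF+CR values above LF and HF+CR overlapping with HF. Cyp2a4, a female-biased steroid hydroxylase, stood at 0.577, 0.555 and 166 RPKM in HF+CR, with HF+CR 3 far above the others, and had an interaction of -3.96 ± 2.19 (adjusted p = 0.519). Mup3, a major urinary protein, had 2.99 ± 0.96 (adjusted p = 0.190).

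Of 37 tested genes of the growth hormone, STAT5 and IGF1 axis, Cux2 alone had a called interaction (2.7%, beside 1.02% of all genes). By limma, 8 of the 37 had an unadjusted p under 0.05, beside 1220 of all 10356 genes, and the list median was 0.15. Without LF 2 and HF+CR 3 the calls in this list were 3 positive and 2 negative. Igf1, the main circulating product of growth hormone action, was at 19.8, 15.99 and 26.5 RPKM in LF, 13.9, 21.1 and 23.3 RPKM in LF+CR, 27.7, 21.3 and 21.8 RPKM in HF and 32.0, 30.5 and 23.4 RPKM in HF+CR, and groups overlapped on each diet. Its interaction was 0.36 ± 0.30 (adjusted p = 0.699), and those of the growth hormone receptor gene Ghr and of Stat5b were 0.55 ± 0.34 (adjusted p = 0.572) and 0.13 ± 0.19 (adjusted p = 0.855). Socs2 and Cish, feedback inhibitors induced by STAT5, had 0.27 ± 0.66 (adjusted p = 0.925) and 0.14 ± 1.21 (adjusted p = 0.981), with wide errors. Bcl6, a repressor that competes with STAT5 for sites, had 1.52 ± 1.03 (adjusted p = 0.623), and Trim24, a coregulator gene, had -1.11 ± 0.29 (adjusted p = 0.0966) after a rise on LF (0.88 ± 0.21 (adjusted p = 0.0219)).

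Called shares of other lists are set beside 1.02% of all genes (0.579% positive and 0.444% negative). With CR, 3.01% of all genes rose on LF and 0.628% on HF, while 3.49% and 0.772% fell. By limma, 1220 of all 10356 genes had an unadjusted p under 0.05 for the interaction. In the 24 tested terminal complement genes and their regulators, C4bp, C6, C8a, C8b and C9 were called (20.8%), all positive, with a list median of 0.32, and 3 were called without the pancreas libraries. Cytochrome P450 and conjugation genes had 2 positive and 7 negative calls of 57 (15.8%), and 6 and 10 without LF 2 and HF+CR 3. Organic anion transporters had 2 positive and 2 negative calls of 18 (22.2%), and 5 and 2 without LF 2 and HF+CR 3. These lists share members with the sex-biased lists. By limma, cholesterol synthesis and uptake had 0 of 27 called and 3 with an unadjusted p under 0.05. In that list 16 rose with CR on LF and 7 on HF, with medians of 1.26 and 1.14, and Insig1, a brake on sterol synthesis, rose on both (2.18 ± 0.33 (adjusted p = 0.00170) and 1.51 ± 0.33 (adjusted p = 0.0339)). In fatty acid synthesis limma called 0 of 32, against 13 with an unadjusted p under 0.05, with 10 rising on LF, 1 on HF and a median interaction of -0.64. Fasn, the fatty acid synthase, rose on LF from 42.6, 14.1 and 24.1 RPKM to 308, 89.9 and 228 RPKM, read 29.2, 46.3 and 28.1 RPKM in HF and 57.4, 83.7 and 46.6 RPKM in HF+CR, and had an interaction of -2.03 ± 0.67 (adjusted p = 0.196). Among 23 lipid droplet genes limma called 0, against 4 with an unadjusted p under 0.05, and Cidec, which enlarges lipid droplets, fell on both diets (-3.18 ± 0.82 (adjusted p = 0.0326) on LF and -3.92 ± 0.82 (adjusted p = 0.0313) on HF). Fatty acid oxidation genes had 2 positive calls (Cyp4a32 and Slc27a2) and 1 negative (Acot3) of 43. Respiratory chain subunits were negative in 69 of 73, with a median of -0.28, beside a median of 0.01 over all genes. Of these subunits 2 were called, Ndufa12 and Ndufa8, and under quantile normalization 65 were negative. Without the pancreas libraries the median was -0.13, with 59 negative and 0 called by limma.

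The genes differed between the diets mostly under CR. HF+CR and LF+CR differed by limma's test in 101 of the 106 genes, where 9.78% of all genes did, and their libraries did not overlap in 104, where 31.3% of all genes did not. HF and LF differed in 7 (0.406% of all genes): Cyp2b13, Fbxo21, Cyp4a12b, Srd5a1, Postn, Mrpl23 and Ppp2r5c. The interactions of Mrpl23 (adjusted p = 0.0918) and Ppp2r5c (0.221) were not called without the pancreas libraries. That of Ppp2r5c was also not called with its accessions summed (-0.29, adjusted p = 0.612), a setting that called 101 of the 106. The HF and LF libraries were apart in 36 genes, beside 18.8% of all genes. In 98 of the 106 the diet difference was larger in size with CR than without. Both of these contrasts use the libraries that chose the genes, so the counts are a description. For Serpina1e the diet difference was 0.46 ± 0.97 (adjusted p = 0.849) without CR and 8.14 ± 0.97 (adjusted p = 0.000166) with CR, and for Cux2 it was -0.27 ± 0.18 (adjusted p = 0.466) and -2.91 ± 0.18 (adjusted p = 3.88e-07). Fbxo21 and Srd5a1 reversed: the diet difference was -0.78 and -1.03 without CR and 0.59 and 0.80 with CR, each called.

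The 6 Ex libraries are not in the interaction contrast and gave a diet difference of their own. They did enter the filter on low values, the choice of accession and the shared estimate of the spread, and with the 12 libraries alone 65 genes were called, 61 of them among the 106. In HF+Ex against LF+Ex, 22 of the 106 genes were called (20.8%), beside 5.15% of all genes, and 30.9% of all genes did not overlap between HF+Ex and LF+Ex. In all 22 the sign was opposite to that of the interaction, as it was in 72 of the 106 regardless of the call, beside 50% of all tested genes and 59.7% of the 511 genes called in the Ex libraries outside the 106. The interaction subtracts HF minus LF, so a diet difference of that kind kept under Ex tends to have the opposite sign. The count of opposite signs is therefore a description. Slco1a1 had 70.1, 61.4 and 20.3 RPKM in LF+Ex and 2.41, 0.450 and 0.564 RPKM in HF+Ex, a difference of -4.52 ± 0.80 (adjusted p = 0.00940), against 5.29 ± 0.80 (adjusted p = 0.000918) between HF+CR and LF+CR. Cyp2b13 had 0, 0 and 0.147 RPKM in LF+Ex and 14.3, 7.12 and 9.86 RPKM in HF+Ex, a difference of 3.40 ± 0.40 (adjusted p = 0.00194), against -4.85 ± 0.40 (adjusted p = 7.63e-06) under CR. For both genes all LF+Ex libraries lay within the range of HF+CR, and all HF+Ex libraries within that of HF. Between HF and LF the difference was -2.56 ± 0.80 (adjusted p = 0.131) for Slco1a1 and 3.06 ± 0.40 (adjusted p = 0.0140) for Cyp2b13. These had the same sign as under Ex, while Serpina1e, at 0.46 ± 0.97 (adjusted p = 0.849), had the other sign. Serpina1e (-3.89), Cyp4a12b (-3.83), Elovl3 (-2.80), Mup21 (-2.81) and C8b (-1.66) were also lower in HF+Ex than in LF+Ex, and Cyp2a22 (2.93) and Slc22a27 (2.20) higher. Of the 22 genes 17 were of the opposite class, 2 LF only (Cyp4a32 and Gbe1) and 3 HF only, with Cyp2a22 and Pcp4l1 among these. Cux2, high in LF+CR alone, did not pass (-0.03 ± 0.18 (adjusted p = 0.928)). Without the pancreas libraries, which include LF+Ex 1, 6 of 37 interaction genes were called in the Ex libraries (16.2%, beside 0.319% of all genes), all 6 with opposite sign. Without LF 2 and HF+CR 3 the count was 89 of 270 (33%, beside 10.8%), 85 of them opposite, but in that setting 79.3% of the 1025 other genes called in the Ex libraries were opposite too. Without LF+Ex 1 alone the count was 9.

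**Figure D5:**
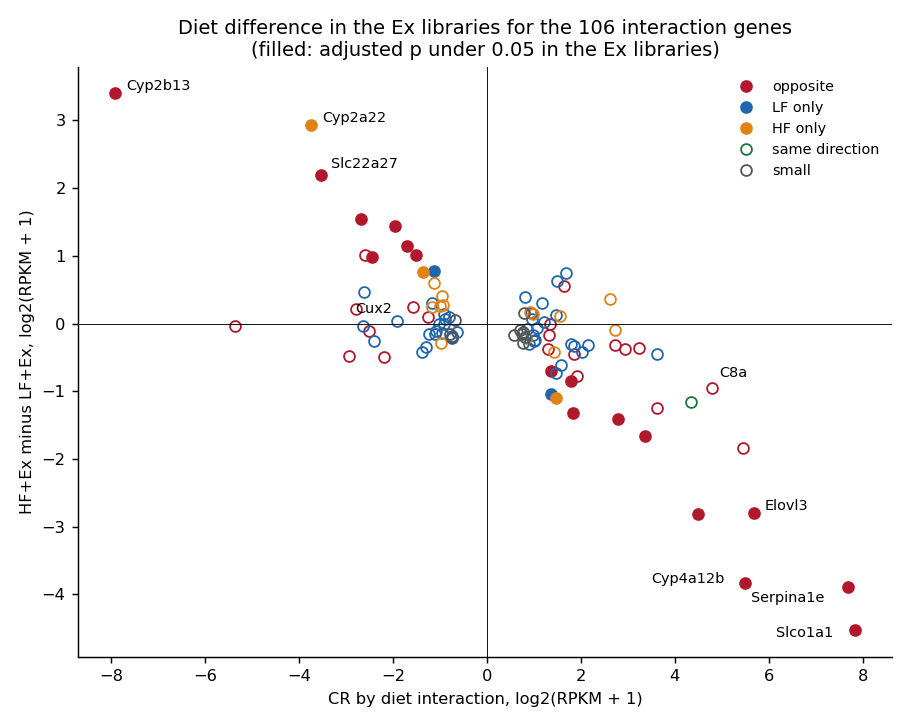
Each point is 1 of the 106 interaction genes, with the CR by diet interaction on the horizontal axis and HF+Ex minus LF+Ex on the vertical axis, both in log2(RPKM + 1); colours are the classes and filled points the 22 genes called in the Ex libraries. All filled points lie to the upper left or lower right of the origin, from Cyp2b13 (-7.90 and 3.40) to Slco1a1 (7.84 and -4.52).

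Some of the genes lie beside each other in the genome. Those within 500 kilobases of each other by RefSeq gene spans on GRCm38.p6 are described by example, with a window set after the data were seen and no background share. Fmo4, Fmo1 and Fmo2, flavin monooxygenase genes of chromosome 1, had negative interactions (-1.296, -1.18 and -2.77). Slc22a26, Slc22a27, Slc22a28 and Slc22a29 lie at chr19:7780094-8253375, where Slc22a28 (2.79) went against the other three (-2.61, -3.54 and -1.96). C8b and C8a at chr4:104766317-104876487, Mup20 and Mup21 at chr4:62011337-62150841, and Cyp4a12a, Cyp4a12b and Cyp4a32 at chr4:115299046-115622507 were positive throughout. Cyp2a22 (-3.73) and Cyp2f2 (1.47), both at chr7:26931631-27133660, had opposite signs. Relatives in these groups share sequence, so they are not independent of each other.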

How the data were processed

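PolyA RNA of 18 liver libraries was measured as RPKM per RefSeq accession in tables the authors deposited. Reads were processed with TopHat 1.4.1 and Cufflinks 1.3.0 on mm10, per the submitters' processing notes; the annotation version is not given in the sources used here. Of 30582 accessions, 30003 were named through a RefSeq table (GRCm38.p6) and 180 through GENCODE, 399 stayed unnamed, and the accession with the highest mean stood for each gene. The labels give no depth; it was roughly estimated from the spacing of low values, and low values carry no interval. The filter kept genes that reached 1 RPKM in 3 libraries or more. limma 3.58.1 in R 4.3.3 was fitted on log2(RPKM + 1) with 6 group means over all 18 libraries (12 residual degrees of freedom), moderated with an intensity trend, two-sided, with Benjamini-Hochberg adjustment over the 10356 genes. The pseudocount of 1 understates changes of low genes. Errors after ± are standard errors.

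Named genes are the 12 called genes with the smallest adjusted p, the 4 largest of each class and direction, up to 4 called members of each gene list, and a fixed list reported whatever its result; the first 3 kinds needed a group mean of at least 2 RPKM. Some genes that the rule takes are not reported here. The genes, lists and libraries to leave out were chosen with earlier results of these data known. Tested on simulated data for the interaction with 10356 genes, the fit recovered 14%, 56%, 88% and 90% of 50 genes each changed 1.5, 2, 3 and 4-fold in RPKM + 1, with 4 false calls among 10156 unchanged genes. The simulated noise was normal and independent between genes. It held no library that stands apart in many genes at once, so these rates need not hold for the real libraries. Alternatives were a pseudocount of 0.1, other filters, median-of-ratios and quantile scaling, no trend, the 12 libraries alone, a replicate term, summed accessions, other sorting limits, and leaving out libraries.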

Additional observations from a re-analysis of the deposited data

Results flagged for a closer look

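For the named genes given here the test of the difference itself passed the threshold in the reported fit; all values are interactions in log2(RPKM + 1), from limma, with 3 libraries a group. Of these 45 genes 20 were called in every other setting tried, while Enho (5 of 28 settings), Mup21 (5 of 29), Selenbp2 (8 of 29) and Ppp1r3g (10 of 28) were called in fewest, and Irf9 was not called with its accessions summed (0.51, adjusted p = 0.350). Among genes with opposite CR differences that were higher with CR on LF, the values were -7.90 for Cyp2b13, -3.54 for Slc22a27, -2.93 for Acot3, -2.68 for Hao2, -2.45 for Cyp2c39 and -1.51 for Postn. The LF difference of Acot3 was not called, and its LF and LF+CR libraries overlapped. Among opposite genes lower with CR on LF the values were 7.84 for Slco1a1, 7.69 for Serpina1e, 5.69 for Elovl3, 5.50 for Cyp4a12b, 5.46 for Cyp4a12a, 4.79 for C8a, 4.50 for Mup21, 3.62 for C6, 3.36 for C8b, 2.94 for Clec2h, 2.79 for Slc22a28, 1.83 for Srd5a1, 1.37 for Fbxo21 and 1.296 for Hsd17b2. The LF differences of Serpina1e, Clec2h and Slc22a28 were not called.

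Genes that rose with CR on LF only had -2.64 for Cux2, -2.61 for Slc22a26, -2.39 for Ppp1r3g, -1.90 for Akr1b7, -1.13 for Gbe1, -0.74 for Ndufa12 and -0.74 for Ndufa8. Genes that fell on LF only had 3.63 for Ces3a, 2.15 for Nat8f5, 2.02 for Alas2, 1.86 for Irf9, 1.79 for C9, 1.48 for Hsd3b7, 1.47 for Cyp2f2, 1.37 for Cyp4a32 and 0.91 for Slc27a2. Genes that differed on HF only had 2.73 for Enho, 2.63 for Selenbp2, 1.44 for F11, -3.73 for Cyp2a22, -1.37 for Pcp4l1, -1.18 for Fmo1 and -1.11 for Slc16a7. Mup20 had 4.34 and Kdm5b 0.70.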

How the results depend on the processing

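Counts depended on the libraries more than on the scale. With the 12 libraries alone 65 interaction genes were called (36 higher, 29 lower, 21 LF only), with 430 genes called for CR on LF and 84 on HF. Without the pancreas libraries the counts were 37 (20 higher, 17 lower; 20 opposite, 11 LF only, 5 HF only), 215, 28 and 6 in the Ex libraries. Without LF 2 and HF+CR 3 they were 270 (135 higher, 135 lower; 95 opposite, 83 LF only, 63 HF only, 2 same direction), 390 for CR on HF and 89 in the Ex libraries. A size limit of 0.3 gave 65 opposite, 26 LF only and 4 same direction, a limit of 1 gave 11 opposite and 0 same direction, and sorting by adjusted p gave 11 opposite, 25 HF only and 0 same direction. Leaving out 1 library gave 45 to 211 interaction genes, 24 to 125 higher, 21 to 86 lower, 23 to 72 opposite, 14 to 75 LF only, 7 to 45 HF only, 0 to 3 same direction, 250 to 863 for CR on LF, 12 to 296 for CR on HF and 9 to 53 in the Ex libraries. The extremes came without HF+CR 1 (45), without HF+CR 3 (211, 296 and 53), without LF+CR 1 (250), without HF 2 (12) and without LF+Ex 1 (9). Other single libraries that moved a count by over 1.5 times were, for interaction genes, HF 2 (53), HF 3 (60) and LF+CR 1 (64), for CR on LF, LF 1 (269) and LF+CR 2 (304), for CR on HF, HF+CR 1 (26), HF+CR 2 (30), HF 3 (35) and HF 1 (58), and for the Ex libraries, HF+Ex 3 (11), HF+Ex 2 (12), HF+Ex 1 (14) and LF+Ex 2 (14). With a replicate block 83 interaction genes were called (45 higher, 38 lower), and no count moved by over 1.5 times. Whether the numbers pair the libraries is not in the labels. Deviations of same-numbered libraries correlated at -0.49 to 0.32, over 0.1 in 10 of 45 pairs. Their median was 0.004, beside -0.002 for libraries of other numbers. With 3 libraries a group, single outlying libraries weigh on these values, so they cannot settle the question.

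The sign changed only for genes that were not called. Leaving out 1 library gave -0.65 to 0.94 for Cish (below 0 at -0.32 without LF 2, -0.16 without LF+CR 1, -0.17 without LF+CR 2 and -0.43 without HF 3), -0.77 to 0.63 for Fgf21 (above 0 also at 0.53 without LF 3, 0.19 without HF 2, 0.10 without HF 3 and 0.29 without HF+CR 1), -0.62 to 0.28 for Pparg (0.04 without HF 2 and 0.07 without HF+CR 1), -0.012 to 0.25 for Stat5b, -0.16 to 0.81 for Socs2, -0.85 to 0.29 for Sqle and -0.45 to 0.10 for Prlr. Without the pancreas libraries Fgf21 had 1.06, Pparg 0.036, Cyp7a1 -0.36 and Igfbp1 0.15, and without LF 2 and HF+CR 3 Cish had -0.34, Sqle 0.30 and Prlr 0.20. Over all named genes and settings, 2107 values kept their direction and side of the threshold, 232 lost the call, 23 gained it and 24 changed sign; the cause was not tested.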
